A study of Mus musculus with 24 samples.

Results

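The 10 mouse genes described here were grouped under the pathway that makes UDP-N-acetylglucosamine (UDP-GlcNAc) and recycles amino sugars, namely Gfpt1, Gfpt2, Gnpnat1, Pgm3, Uap1, Uap1l1, Nagk, Gnpda1, Gnpda2 and Amdhd2. Each was chosen by an exact match of its symbol to a row name, and all 10 were found among the 19664 rows of the table. All 10 were also among the 12020 rows tested. Poly(A) RNA was measured in entire hearts of 24 untreated adult C57BL/6J mice, 6 of each genotype with 3 males and 3 females. DTG hearts carried transgenes for both OGT and OGA, OGT_TG hearts carried the OGT transgene, OGA_TG hearts carried the OGA transgene, and WT hearts were wild type. The labels call both transgenes cardiac specific and do not name the promoter that drives them. OGT is O-GlcNAc transferase, which attaches the sugar of UDP-GlcNAc to serine and threonine residues of proteins, and OGA is the hydrolase that takes it off.

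The hexosamine pathway branches from glycolysis at fructose-6-phosphate. Gfpt1 and Gfpt2 encode GFAT, the rate-limiting enzyme, which takes an amino group from glutamine to make glucosamine-6-phosphate. Gnpnat1 acetylates that product, Pgm3 moves the phosphate, and Uap1 joins the sugar to uridine diphosphate, which yields the donor that OGT uses. In the salvage arm, Nagk phosphorylates free N-acetylglucosamine from degraded glycoconjugates, Amdhd2 removes the acetyl group again, and Gnpda1 and Gnpda2 convert glucosamine-6-phosphate to fructose-6-phosphate and ammonia. Uap1l1 is a relative of Uap1 in sequence, and its role is less settled. In the heart the pathway is known for linking glucose and amino acid supply to protein O-GlcNAcylation.

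Values are FPKM, which counts fragments per kilobase of a transcript after adjusting for library size. Estimated depth ran from 10.97 M to 17.14 M fragments per library. The row named OGT in capitals, taken as the transgene, averaged 4652 FPKM in DTG and 1748 FPKM in OGT_TG hearts, against 0.588 FPKM in OGA_TG and 1.68 FPKM in WT hearts. The row named OGA averaged 3462 FPKM in DTG and 4122 FPKM in OGA_TG hearts, and no OGT_TG or WT heart exceeded 0.0222 FPKM. OGT_TG replicates 3 and 6 stood apart, with 1104 and 715 FPKM of OGT, the lowest of their group, so calls on OGT_TG that end without both are marked. Their atrial marker sums, over Myl7, Sln, Myl4 and Nppa, were 11989 and 18948 FPKM, against 4838 to 5249 FPKM in the other OGT_TG hearts. Nppa makes up most of this sum, with a mean of 7339 FPKM in OGT_TG and 2538 FPKM in WT hearts. The other markers were lower on average in OGT_TG than in WT hearts. Myl7 (509 against 1051 FPKM) and Sln (266 against 390 FPKM) were called lower, and Myl4 (464 against 596 FPKM) was not called. Cardiomyocyte markers were present in all hearts, with sums over 6 ventricular markers, among them Myl2, Tnnt2 and Ryr2, of 34784 to 38185 FPKM in DTG, 28298 to 39626 FPKM in OGT_TG, 42411 to 44209 FPKM in OGA_TG and 41543 to 46742 FPKM in WT hearts. Summed levels of 9 fibroblast markers, among them Dcn, Pdgfra and Col1a1, ran from 584 to 917 FPKM in DTG, from 959 to 1830 FPKM in OGT_TG, from 528 to 653 FPKM in OGA_TG and from 545 to 714 FPKM in WT hearts, and no listed marker was at 0 in all hearts. Sums over 7 macrophage markers, among them Csf1r, Cd68 and C1qa, ran from 88.2 to 116 FPKM in DTG, from 94.2 to 299 FPKM in OGT_TG, from 66.8 to 97.5 FPKM in OGA_TG and from 65.3 to 96.9 FPKM in WT hearts, with 280 and 299 FPKM in OGT_TG replicates 3 and 6. C1qa, C1qb and Lgals3 make up most of this sum in OGT_TG hearts, with means of 47.9, 53.1 and 30.4 FPKM. These markers and Cd68 were called higher in OGT_TG than in WT hearts. Csf1r and Mrc1 were higher on average and not called, and Cd163 (3.86 against 4.04 FPKM) was lower and not called. The part of cell composition in the results on the pathway was not tested, and in whole tissue fewer cells of a type and less RNA per cell cannot be told apart.

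In WT hearts, the pathway was most abundant at its last step. Uap1 averaged 24.7 ± 1.70 FPKM and Nagk 15.2 ± 0.471 FPKM (SD, n = 6), and each lay above the next gene of the order in all 24 hearts. Gnpda2 at 9.10 ± 0.969 FPKM and Gnpda1 at 8.79 ± 0.801 FPKM overlapped in range, and Gnpda2 was the higher in 5 of 6 WT hearts. Gfpt1 at 7.502 ± 0.567 FPKM and Gfpt2 at 6.64 ± 0.616 FPKM overlapped too, with Gfpt1 the higher in 5 of 6. No test was made within hearts. Gnpnat1 followed at 5.12 ± 0.934 FPKM and Uap1l1 at 4.12 ± 1.12 FPKM, with overlapping ranges. Amdhd2 at 2.84 ± 0.679 FPKM and Pgm3 at 2.65 ± 0.265 FPKM were the lowest and overlapped. Pgm3 was above 19.0% of all tested rows in WT hearts and Uap1 above 78.0%. By the estimated depth, the lowest heart held about 36.3 fragments for Amdhd2 and 74.2 for Pgm3, against 202 for Gfpt2 and 583 for Uap1, so the first pair carries the larger counting error.

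**Figure D1:**
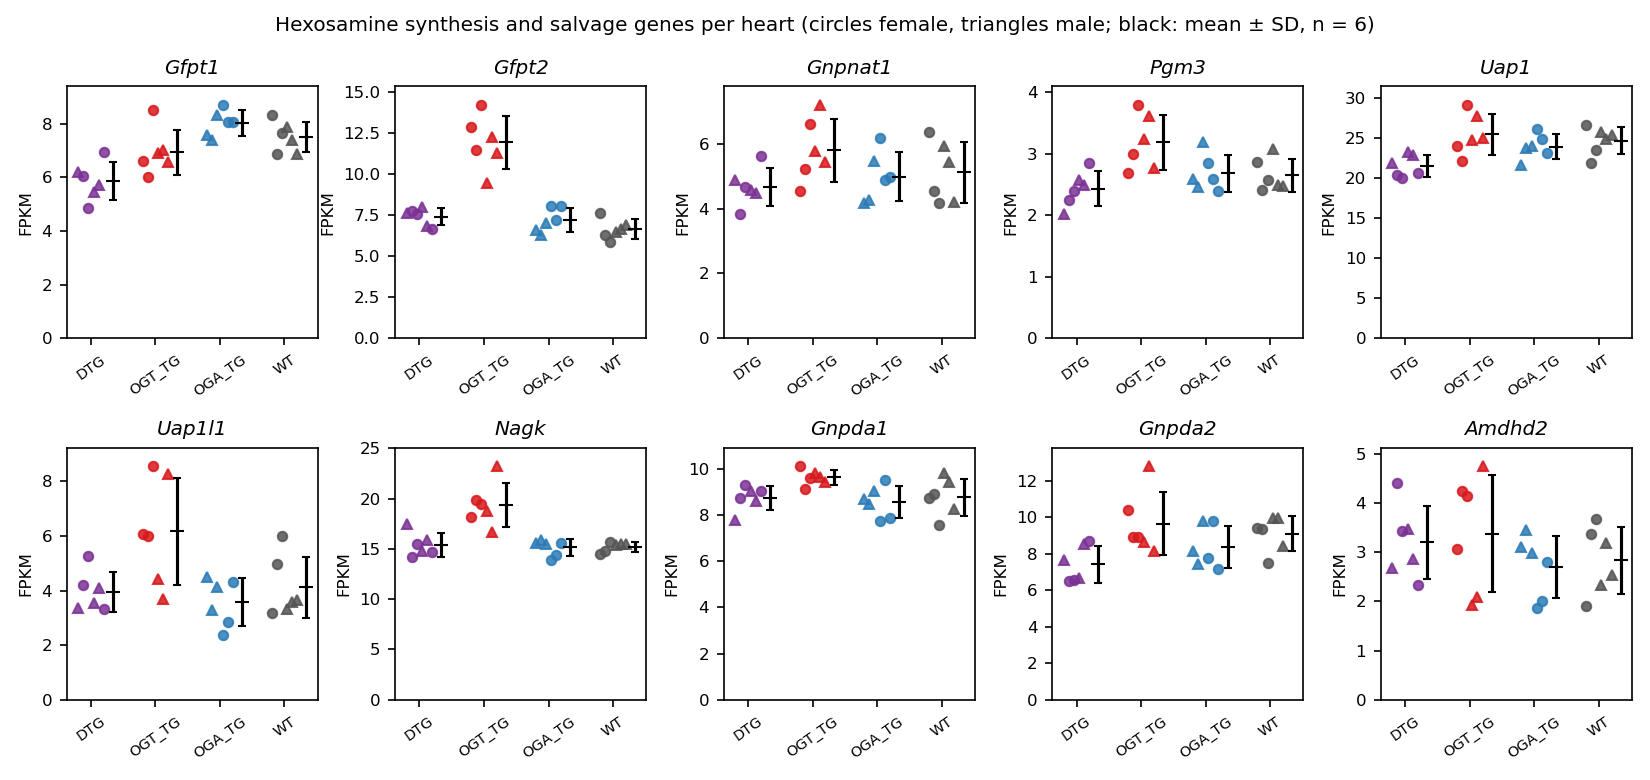
FPKM of the 10 genes in each of 24 hearts, with DTG, OGT_TG, OGA_TG and WT from left to right, circles for females, triangles for males and black bars for the mean ± SD of 6 hearts. All 6 OGT_TG hearts lie above all other hearts for Gfpt2, from 9.48 to 14.2 FPKM, while Gfpt1 is lowest on average in DTG hearts at 5.87 FPKM.

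Promoter windows of RefSeq (build GRCm38.p6) were available for 7 of the 10 genes and cover the 250 bases before the annotated start. Those of Gfpt1, Gfpt2, Uap1 and Nagk are shown, the genes among them that were called against WT hearts. Gfpt2 and Nagk were called higher in OGT_TG hearts, and Gfpt1 and Uap1 lower in DTG hearts. They are written in the direction of transcription, and capitals mark every match, on either strand, to the TATA motif TATAA, the CCAAT box CCAAT, the GC box GGGCGG, the E-box CACGTG or TGACGT, the core of the cAMP response element. The window of Gfpt1 is chr6:87042596-87042845 on the plus strand, that of Gfpt2 is chr11:49793905-49794154 on the plus strand, that of Uap1 is chr1:170174965-170175214 on the minus strand, and that of Nagk is chr6:83794750-83794999 on the plus strand.
Gfpt2: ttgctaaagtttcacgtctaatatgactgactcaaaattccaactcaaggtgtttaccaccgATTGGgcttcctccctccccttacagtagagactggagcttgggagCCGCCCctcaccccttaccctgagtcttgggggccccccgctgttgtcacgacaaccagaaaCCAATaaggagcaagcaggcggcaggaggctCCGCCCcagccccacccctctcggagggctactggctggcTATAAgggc
Gfpt1: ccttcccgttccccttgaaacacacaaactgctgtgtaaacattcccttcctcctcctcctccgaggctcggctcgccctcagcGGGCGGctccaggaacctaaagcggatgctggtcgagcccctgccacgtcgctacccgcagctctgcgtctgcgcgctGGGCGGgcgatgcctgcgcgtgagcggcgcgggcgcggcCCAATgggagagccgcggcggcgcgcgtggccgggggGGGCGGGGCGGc
Uap1: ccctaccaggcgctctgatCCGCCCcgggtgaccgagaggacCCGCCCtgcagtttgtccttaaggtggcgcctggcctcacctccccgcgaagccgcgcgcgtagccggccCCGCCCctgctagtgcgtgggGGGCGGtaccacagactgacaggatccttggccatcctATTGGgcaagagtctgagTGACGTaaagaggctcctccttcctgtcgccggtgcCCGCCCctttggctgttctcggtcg
Nagk: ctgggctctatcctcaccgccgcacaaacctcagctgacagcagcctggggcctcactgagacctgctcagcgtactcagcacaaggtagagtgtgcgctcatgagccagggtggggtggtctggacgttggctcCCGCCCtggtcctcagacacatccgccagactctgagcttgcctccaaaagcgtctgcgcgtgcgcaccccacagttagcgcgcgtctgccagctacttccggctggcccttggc
Gfpt2 held TATAA 9 bases before its RefSeq start and 32 before its GENCODE M21 start, which lies further downstream, 2 matches to CCAAT and 2 to GGGCGG, and its GC content was 57.6%. Gfpt1 held no TATAA, 1 CCAAT and 4 GGGCGG, 2 of them overlapping, at a GC content of 72.0%. Uap1 held 5 GGGCGG, 1 CCAAT and 1 TGACGT, and Nagk held 1 GGGCGG. Of the other windows, Pgm3 had 2 CCAAT and 5 GGGCGG, Amdhd2 had 1 CCAAT, 1 GGGCGG and 3 CACGTG, and Gnpda2 had none of the motifs. Among 32851 RefSeq windows of the same length, 22.8% held TATAA, 33.8% CCAAT, 32.7% GGGCGG, 6.02% CACGTG and 6.47% TGACGT. These matches are descriptions of the letters and not sites of binding.

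Each genotype was compared with WT to ask whether the pathway that supplies OGT differed where OGT, OGA or both were expressed from a transgene. Differences are on the log2(FPKM + 1) scale, which understates changes of low genes, and a gene was called at an adjusted p under 0.05 over all tested rows (limma, Benjamini-Hochberg). In DTG against WT hearts, 2 of 10 genes fell, Gfpt1 and Uap1, and none rose, where 15.6% of all rows were called, 4.21% higher and 11.4% lower. In OGT_TG against WT hearts, 3 of 10 rose, Gfpt2, Uap1l1 and Nagk, and none fell, where 37.4% of all rows were called, 25.2% higher and 12.2% lower. In OGA_TG against WT hearts none of the 10 was called, none had an unadjusted p under 0.05, and 0.358% of all rows were called, 0.0582% higher and 0.3% lower. The median difference of the 10 genes was −0.06 in DTG, 0.16 in OGT_TG and −0.03 in OGA_TG hearts, against −0.04, 0.06 and −0.05 over all tested rows.

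**Figure D2:**
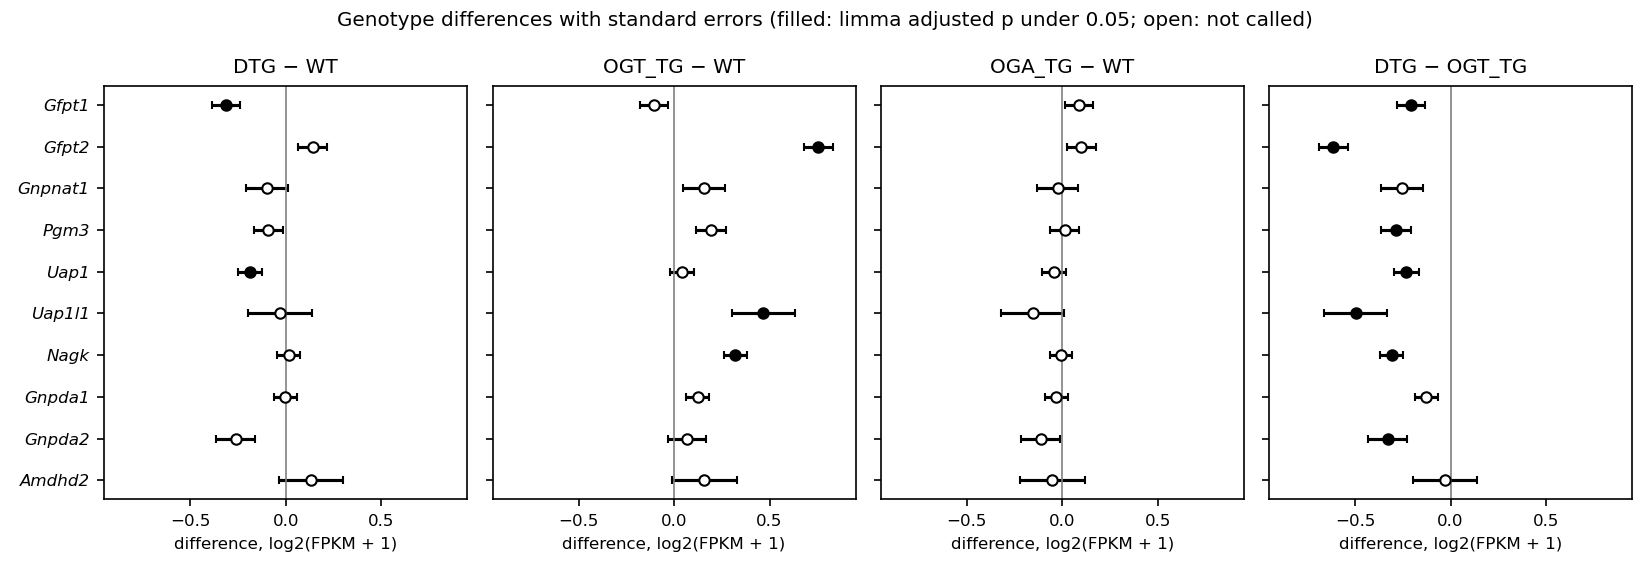
Differences in log2(FPKM + 1) with their standard errors for the 10 genes in 4 comparisons, with filled points for calls at an adjusted p under 0.05 (limma, all 24 hearts) and open points for genes not called. Gfpt2 shows the largest difference of the 10 in OGT_TG against WT hearts, at 0.75, and Gfpt1 the lowest value in DTG against WT hearts, at −0.31.

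DTG hearts were also compared with OGT_TG hearts, which carry the OGT transgene alone and at a lower level, with 1748 against 4652 FPKM of OGT. Here 7 of 10 genes fell, where 32.3% of all rows were called, 5.02% higher and 27.2% lower. Over all tested rows the median was −0.11 in this comparison and 0.01 after median-of-ratios scaling. With that scaling, as with quantile normalization, 2 of the 7 calls held, Gfpt2 and Nagk. Against OGA_TG hearts, DTG hearts were lower in 1 of 10 genes, Gfpt1, where 18.1% of all rows were called, 8.33% higher and 9.77% lower. OGT_TG against OGA_TG hearts gave 4 higher and 1 lower of 10, where 44.4% of all rows were called, 33.3% higher and 11.1% lower. The comparisons share hearts and are not independent of each other. The split of calls over all rows depended on the scaling. With median-of-ratios scaling, 752 rows were called higher and 916 lower in DTG against WT hearts, where 506 and 1372 were called as deposited. In OGT_TG against WT hearts that scaling gave 2050 higher and 2278 lower, where 3029 and 1470 were called as deposited.

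Gfpt2 and Gfpt1, which encode the same first step, differed in their pattern over genotypes. Gfpt2 had a lowest, median and highest value of 6.65, 7.63 and 8.02 FPKM in DTG, 9.48, 11.9 and 14.2 FPKM in OGT_TG, 6.27, 7.13 and 8.07 FPKM in OGA_TG, and 5.85, 6.57 and 7.66 FPKM in WT hearts. The OGT_TG hearts stood apart as a group, and the other 3 genotypes overlapped. Gfpt2 rose in OGT_TG against WT hearts by 0.75 ± 0.076 (SE, limma adjusted p = 2.1e-07) and was higher than in OGA_TG hearts by 0.65 ± 0.076 (adjusted p = 6.3e-07). In DTG hearts it was lower than in OGT_TG hearts, with a difference of −0.61 ± 0.076 (adjusted p = 1.1e-05). The DTG minus WT difference was 0.14 ± 0.076 and was not called (adjusted p = 0.23, 95% interval −0.02 to 0.30). Without OGT_TG replicates 3 and 6, the OGT_TG minus WT difference of Gfpt2 was 0.71 ± 0.082 (adjusted p = 1.2e-06), and with any 1 heart left out it stayed between 0.71 and 0.81, a call in each case.

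Gfpt1 had a lowest, median and highest value of 4.85, 5.87 and 6.93 FPKM in DTG, 6.01, 6.74 and 8.49 FPKM in OGT_TG, 7.38, 8.07 and 8.71 FPKM in OGA_TG, and 6.89, 7.52 and 8.31 FPKM in WT hearts. All DTG hearts lay below all OGA_TG hearts, and 1 DTG heart reached into the WT range. Gfpt1 fell in DTG against WT hearts, with a difference of −0.31 ± 0.073 (limma adjusted p = 0.0053), and was lower than in OGA_TG hearts by a difference of −0.40 ± 0.073 (adjusted p = 0.00051). Both calls held with each of the 24 hearts left out. In OGT_TG against WT hearts the difference was −0.10 ± 0.073 (adjusted p = 0.28), and it was called lower with median-of-ratios scaling and with quantile normalization. The calls of Gfpt1 in DTG against OGT_TG hearts (−0.21 ± 0.073, adjusted p = 0.034) and in OGT_TG against OGA_TG hearts (−0.19 ± 0.073, adjusted p = 0.039) were each lost without any of 7 hearts. For the first these were OGT_TG replicates 3, 4 and 5 and DTG replicates 2, 3, 4 and 5, with an adjusted p of up to 0.107, and the call was also lost without OGT_TG replicates 3 and 6 together (adjusted p = 0.13) and under the other scalings. For the second they were OGT_TG replicates 1, 2 and 6 and OGA_TG replicates 3, 4, 5 and 6, with an adjusted p of up to 0.103.

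Within a heart, the balance of both genes does not depend on how libraries are scaled against each other. Gfpt2 made up 55.9 ± 4.24% of the summed FPKM of Gfpt1 and Gfpt2 in DTG, 63.2 ± 2.95% in OGT_TG, 47.2 ± 1.59% in OGA_TG and 46.9 ± 2.40% in WT hearts (SD, n = 6). All OGT_TG hearts, from 57.9 to 66.1%, lay above all OGA_TG hearts, from 45.7 to 49.95%, and all WT hearts, from 43.3 to 50.05%. In DTG hearts the share ran from 49.0 to 61.1%, and the lowest of them, replicate 6, reached into the WT range. That library also had the lowest GC balance of the DTG hearts (−0.35), a library measure described below. DTG replicate 3, with the highest share, had the highest (0.37). In WT hearts the lowest share, in replicate 3, came with the highest GC balance (0.25). In OGT_TG and OGA_TG hearts the extremes of share and GC balance fell on different hearts. The part of the GC balance in the shares was not tested. The sum of both genes, which unlike the share depends on that scaling, was 13.3 ± 0.620 FPKM in DTG, 18.9 ± 2.22 FPKM in OGT_TG, 15.2 ± 1.17 FPKM in OGA_TG and 14.1 ± 0.986 FPKM in WT hearts. In DTG hearts that sum ran from 12.5 to 13.9 FPKM, against 13.2 to 16.0 FPKM in WT hearts, and all OGT_TG hearts, from 16.4 to 22.7 FPKM, lay above all WT hearts. No test was made of the shares.

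**Figure D3:**
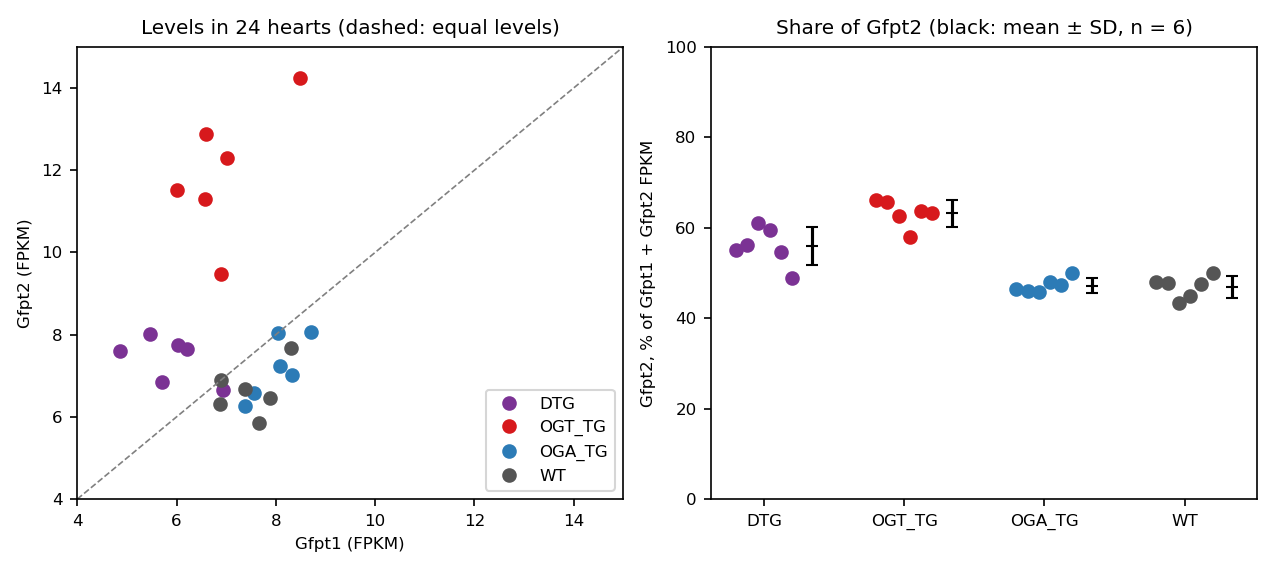
Left, FPKM of Gfpt2 against Gfpt1 in 24 hearts, with a dashed line at equal levels and colours for genotype. Right, Gfpt2 as a percentage of the summed FPKM of both genes per heart, with black bars for the mean ± SD of 6 hearts, at 55.9% in DTG, 63.2% in OGT_TG, 47.2% in OGA_TG and 46.9% in WT hearts.

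The middle steps were not called against WT in any genotype. Gnpnat1, the acetyltransferase, averaged 4.68 ± 0.586 FPKM in DTG, 5.81 ± 0.967 FPKM in OGT_TG, 4.99 ± 0.760 FPKM in OGA_TG and 5.12 ± 0.934 FPKM in WT hearts (SD, n = 6), and its groups overlapped throughout. Pgm3, the phosphate mutase, averaged 2.43 ± 0.285 FPKM in DTG, 3.18 ± 0.448 FPKM in OGT_TG, 2.68 ± 0.297 FPKM in OGA_TG and 2.65 ± 0.265 FPKM in WT hearts. Its OGT_TG minus WT difference was 0.19 ± 0.078 (limma adjusted p = 0.055), just outside the threshold. In DTG against OGT_TG hearts Pgm3 fell, with a difference of −0.28 ± 0.078 (adjusted p = 0.0082), a call that median-of-ratios scaling and quantile normalization ended. Gnpnat1 was not called there (−0.25 ± 0.109, adjusted p = 0.077).

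Uap1, the pyrophosphorylase of the last step, had a lowest, median and highest value of 20.004, 21.3 and 23.3 FPKM in DTG, 22.2, 24.9 and 29.2 FPKM in OGT_TG, 21.7, 23.9 and 26.2 FPKM in OGA_TG, and 21.9, 25.1 and 26.6 FPKM in WT hearts. The DTG hearts were the lowest group and overlapped each of the others. Uap1 fell in DTG against WT hearts, with a difference of −0.19 ± 0.063 that was close to the threshold (limma adjusted p = 0.046). That call was lost without any of 14 hearts, namely DTG replicates 1, 2, 3 and 6, OGT_TG replicates 1 and 4, OGA_TG replicates 2, 3 and 6, and WT replicates 1, 3, 4, 5 and 6, where the adjusted p reached 0.115 at most. It was also lost with no filter on low values and under all 3 other scalings tried. In DTG against OGT_TG hearts the difference was −0.23 ± 0.063 (adjusted p = 0.0082), and it was lost under median-of-ratios and quantile scaling.

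Uap1l1 varied more than Uap1. Its lowest, median and highest values were 3.33, 3.81 and 5.25 FPKM in DTG, 3.69, 6.03 and 8.56 FPKM in OGT_TG, 2.38, 3.72 and 4.52 FPKM in OGA_TG, and 3.19, 3.61 and 6.00 FPKM in WT hearts. The highest values belonged to OGT_TG replicates 3 and 6, at 8.56 and 8.28 FPKM, and the groups overlapped. These hearts also had the highest macrophage marker sums, at 280 and 299 FPKM, whose part in the result was not tested. Uap1l1 rose in OGT_TG against WT hearts by 0.47 ± 0.165 (limma adjusted p = 0.030). Without those 2 hearts the difference was 0.25 ± 0.159 and no longer called (adjusted p = 0.27). Leaving out either of them alone, or WT replicate 1, 4, 5 or 6, also ended the call, with an adjusted p of up to 0.090. The call was lost as well with library weights, under median-of-ratios and quantile scaling, and with only the OGT_TG and WT hearts fitted. In OGT_TG against OGA_TG hearts the difference of 0.62 ± 0.165 (adjusted p = 0.0040) was 0.40 without both hearts and not called (adjusted p = 0.053). In DTG against OGT_TG hearts the difference of −0.50 ± 0.165 (adjusted p = 0.025) was lost without OGT_TG replicate 3, OGT_TG replicate 6 or DTG replicate 6 (adjusted p of up to 0.074), and without both OGT_TG hearts (adjusted p = 0.21).

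Nagk, the kinase of the salvage arm, was highest in OGT_TG hearts, as was Gfpt2. Its lowest, median and highest values were 14.2, 15.1 and 17.4 FPKM in DTG, 16.6, 19.1 and 23.2 FPKM in OGT_TG, 13.9, 15.6 and 15.9 FPKM in OGA_TG, and 14.5, 15.4 and 15.7 FPKM in WT hearts. All OGT_TG hearts lay above all OGA_TG and WT hearts, and 1 DTG heart reached into the OGT_TG range. Nagk rose in OGT_TG against WT hearts by 0.32 ± 0.060 (limma adjusted p = 0.00026), was higher than in OGA_TG hearts by 0.33 ± 0.060 (adjusted p = 0.00014), and in DTG hearts was lower than in OGT_TG hearts with a difference of −0.31 ± 0.060 (adjusted p = 0.00070). Without OGT_TG replicates 3 and 6, the difference from WT was 0.25 ± 0.057 (adjusted p = 0.0022). The DTG minus WT difference was 0.01 ± 0.060 (adjusted p = 0.91, 95% interval −0.11 to 0.14).

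The deaminases and the deacetylase were not called against WT in any genotype. Gnpda1 averaged 8.75 ± 0.535 FPKM in DTG, 9.64 ± 0.331 FPKM in OGT_TG, 8.57 ± 0.681 FPKM in OGA_TG and 8.79 ± 0.801 FPKM in WT hearts (SD, n = 6). It was called higher in OGT_TG than in OGA_TG hearts, by 0.16 ± 0.060 (limma adjusted p = 0.038), a call lost without OGT_TG replicate 1, 3 or 4 or OGA_TG replicate 1, 2, 4 or 6 (adjusted p of up to 0.093), without both OGT_TG replicates 3 and 6, and under median-of-ratios and quantile scaling. Gnpda2 averaged 7.43 ± 1.01 FPKM in DTG, 9.64 ± 1.73 FPKM in OGT_TG, 8.36 ± 1.16 FPKM in OGA_TG and 9.10 ± 0.969 FPKM in WT hearts. Its DTG minus WT difference was −0.26 ± 0.101 (adjusted p = 0.081), and it was called lower in DTG than in OGT_TG hearts, with a difference of −0.33 ± 0.101 (adjusted p = 0.016), except under median-of-ratios and quantile scaling. Amdhd2 averaged 3.20 ± 0.739 FPKM in DTG, 3.37 ± 1.19 FPKM in OGT_TG, 2.70 ± 0.637 FPKM in OGA_TG and 2.84 ± 0.679 FPKM in WT hearts, and was called in none of the 6 comparisons of genotypes. Gnpda2 made up 45.8 ± 4.03% of the summed FPKM of both deaminases in DTG, 49.7 ± 3.94% in OGT_TG, 49.2 ± 2.02% in OGA_TG and 50.8 ± 0.769% in WT hearts.

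The interaction of the transgenes asks whether the difference made by the OGA transgene was the same with and without the OGT transgene. It subtracts the OGA_TG minus WT difference from that between DTG and OGT_TG hearts. Of the 10 genes, 2 had a negative interaction, Gfpt2 and Nagk, and none a positive one, where 7.3% of all rows were called, 1.81% higher and 5.49% lower. The interaction of Gfpt2 was −0.71 ± 0.107 (limma adjusted p = 0.00091) and was called with each heart left out. That of Nagk was −0.30 ± 0.085 (adjusted p = 0.036). It was lost without any 1 of 11 hearts, namely DTG replicates 2 and 4, OGT_TG replicates 3 and 6, OGA_TG replicates 2, 3, 5 and 6, and WT replicates 2, 5 and 6, where the adjusted p was 0.062 at most, without OGT_TG replicates 3 and 6 together (adjusted p = 0.084), and under median-of-ratios and quantile scaling. Between males and females none of the 10 was called, none had an unadjusted p under 0.05, and 0.266% of all rows were called, 0.0998% higher in males and 0.166% lower. Terms for a sex difference in the effect of a genotype, added after the data were seen, called no row and none of the 10, also at an unadjusted p under 0.05. In OGT_TG, OGA_TG and WT hearts each title number held a single sex, so sex and title number cannot be told apart there.

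The spread between hearts of 1 genotype was not the same for all genes. After genotype and sex were fitted, the residual SD over 24 hearts was 0.31 for Amdhd2 and Uap1l1, 0.19 for Gnpnat1, 0.18 for Gnpda2, between 0.12 and 0.13 for Gfpt1, Gfpt2 and Pgm3, 0.11 for Uap1, 0.10 for Nagk and 0.09 for Gnpda1, all in log2(FPKM + 1). A measure of each library moved with the more variable genes. This GC balance is the median log2 deviation of 1031 rows whose transcripts had a GC content above 58.1%, less that of 1031 rows below 42.0%, with the genes described here left out. It ran from −0.35 to 0.37 in DTG, from −0.48 to 0.37 in OGT_TG, from −0.49 to 0.26 in OGA_TG and from −0.45 to 0.25 in WT libraries.

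Over 24 hearts, residuals of Amdhd2 and of the GC balance had a Pearson r of 0.89 and a Spearman rho of 0.87, and those of Uap1l1 an r of 0.87 and a rho of 0.90, each with an adjusted p of 0.0001 (100000 permutations within genotype, 20 relations, unadjusted p = 1e-05, the smallest they can give). The permutations, here and for the pairs and marker sums below, took no account of title numbers shared between hearts. Hearts of the same number may not be independent, so these p values may be too small. Nagk, at 0.60 for both coefficients, was also past the threshold (unadjusted p = 0.0039, adjusted p = 0.016). Gnpnat1 with an r of −0.73 (unadjusted p = 0.00043, adjusted p = 0.0029) and Gnpda2 with an r of −0.68 (unadjusted p = 0.0009, adjusted p = 0.0045) ran the other way, with a rho of −0.66 and −0.63. Without the 2 libraries farthest in GC balance, r was 0.87 for Amdhd2, 0.85 for Uap1l1, 0.50 for Nagk, −0.65 for Gnpnat1 and −0.54 for Gnpda2. The longest coding transcript has a GC content of 60.1% for Amdhd2 and 53.9% for Uap1l1, against 39.0% for Gnpnat1 and 38.6% for Gnpda2. Gfpt2 had an r of −0.09 (permutation p = 0.70, adjusted p = 0.87), and its residuals shared 0.860% of their variance with the GC balance, against 80.0% for Amdhd2 and 75.2% for Uap1l1. Gfpt1 and Uap1 passed with the GC balance by rho (−0.55 each, permutation p = 0.012, adjusted p = 0.031) and not by r (−0.52 and −0.49, adjusted p = 0.054 and 0.066). With estimated depth, Nagk had a rho of 0.56 that passed (permutation p = 0.004, adjusted p = 0.016) and an r of 0.44 that did not (permutation p = 0.03, adjusted p = 0.066), with r at 0.51 without the 2 farthest hearts, and no other relation with depth passed by either coefficient.

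**Figure D4:**
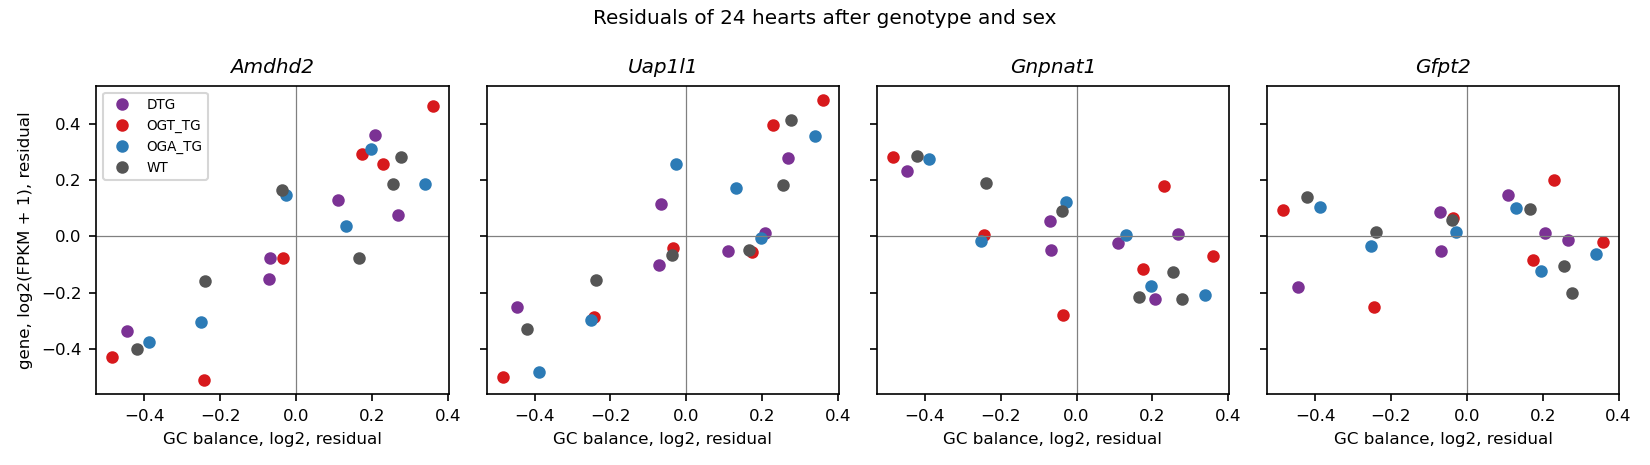
Residuals of log2(FPKM + 1) after genotype and sex against residuals of the GC balance of the same library, for 24 hearts coloured by genotype. Amdhd2 (r = 0.89) and Uap1l1 (r = 0.87) rise with the GC balance, Gnpnat1 (r = −0.73) falls with it, and Gfpt2 (r = −0.09) shows no such slope.

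With the GC balance added to the model as a covariate, an alternative chosen after the data were seen, the differences of the 2 most affected genes had smaller errors. Uap1l1 rose in OGT_TG against WT hearts by 0.46 ± 0.088 (limma adjusted p = 0.00028), and its interaction of −0.51 ± 0.127 was called (adjusted p = 0.013). Gfpt2 kept its interaction at −0.71 ± 0.107 (adjusted p = 0.00064) and Nagk at −0.34 ± 0.070 (adjusted p = 0.0047). Pgm3 rose in OGT_TG against WT hearts by 0.20 ± 0.070 (adjusted p = 0.024). Amdhd2 remained not called in DTG against OGT_TG hearts (−0.13 ± 0.084, adjusted p = 0.20).

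Pairs of the 10 genes also moved together within genotypes. Of 45 pairs, 9 were past an adjusted p of 0.05 by Pearson's r (permutation within genotype, 24 hearts), 8 of them positive. The closest was Uap1l1 with Amdhd2 (r = 0.81, rho = 0.78, unadjusted p = 3e-05, adjusted p = 0.0013, r = 0.77 without the 2 farthest hearts), both of which moved with the GC balance. In the synthesis arm, Gnpnat1 and Pgm3 had an r of 0.71 and a rho of 0.66 (unadjusted p = 0.00042, adjusted p = 0.0094, r = 0.68 without the 2 farthest hearts), and Gfpt2 and Uap1 an r of 0.63 and a rho of 0.69 (unadjusted p = 0.0030, adjusted p = 0.019, r = 0.68 without the 2 farthest hearts). With the GC balance, Gnpnat1 had an r of −0.73 and Pgm3 of −0.49 (permutation, adjusted p = 0.0029 and 0.066), and its part in their pair was not tested. Gfpt1 passed with Gnpnat1 and with Uap1 (r = 0.64 and permutation adjusted p = 0.012 for each) and with Pgm3 (r = 0.58, adjusted p = 0.042). Gnpnat1 with Uap1 (r = 0.63, adjusted p = 0.019) and Uap1l1 with Nagk (r = 0.68, adjusted p = 0.012) passed too. The negative pair was Gnpnat1 with Amdhd2 (r = −0.57, adjusted p = 0.042). The part of the GC balance in these pairs was not tested. Gfpt1 and Gfpt2 had an r of 0.24 and a rho of 0.27 (unadjusted permutation p = 0.32, adjusted p = 0.47, r = 0.10 without the 2 farthest hearts). Of 30 relations with marker sums, 2 were past the threshold, those of the macrophage sum with Uap1l1 (r = 0.78, rho = 0.81, unadjusted p = 1e-05, adjusted p = 0.00030, r = 0.72 without the 2 farthest hearts) and with Amdhd2 (r = 0.71, rho = 0.64, unadjusted p = 0.0014, adjusted p = 0.020, r = 0.69 without the 2 farthest hearts). The rho of the macrophage sum with Amdhd2 did not pass (permutation, adjusted p = 0.064). Uap1l1 and Amdhd2 also moved with the GC balance. In OGA_TG and WT hearts the macrophage sum was lowest (66.8 and 65.3 FPKM) at the lowest GC balance (−0.49 and −0.45). It was highest there (97.5 and 96.9 FPKM) at the highest GC balance (0.26 and 0.25). In OGT_TG hearts only the highest sum followed, and in DTG hearts neither did. The part of the GC balance in these relations was not tested. Gfpt2 had an r of 0.26 with the fibroblast sum (rho = 0.19, permutation p = 0.33, adjusted p = 0.58).

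Genes around the pathway were described from 6 lists, counted as called higher and lower among those tested. Over all rows, the shares called against WT were 4.21% higher and 11.4% lower in DTG hearts, and 25.2% higher and 12.2% lower in OGT_TG hearts. Glutamine supply and use had 3 higher and 0 lower of 6 in DTG, and 4 higher and 1 lower of 6 in OGT_TG hearts, each against WT. Slc38a1, a transporter of glutamine, averaged 11.6 ± 2.38 FPKM in DTG and 10.4 ± 1.16 FPKM in OGT_TG hearts, against 3.93 ± 0.980 FPKM in WT hearts (SD, n = 6). It rose by 1.35 ± 0.084 (limma adjusted p = 1.7e-10) in DTG and by 1.23 ± 0.084 (adjusted p = 1.2e-09) in OGT_TG hearts. Slc1a5, another glutamine carrier, rose by 0.29 ± 0.090 in DTG and by 0.86 ± 0.090 in OGT_TG hearts. Slc7a5, which exchanges glutamine for large neutral amino acids, rose by 0.44 ± 0.099 in DTG and by 0.79 ± 0.099 in OGT_TG hearts. Slc38a3 fell in OGT_TG hearts, with a difference of −0.77 ± 0.144, and was not called in DTG hearts, at −0.04 ± 0.144. The DTG call of Slc1a5 (adjusted p = 0.031) was lost without DTG replicate 2, 3, 4 or 6 or WT replicate 1, 2, 3 or 6 (adjusted p of up to 0.087). Glul, the glutamine synthetase, was not called in either genotype.

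Among 5 genes from glucose entry to fructose-6-phosphate, 0 were higher and 1 lower in DTG, and 1 higher and 2 lower in OGT_TG hearts. Hk2, a hexokinase of muscle, averaged 63.9 ± 6.95 FPKM in DTG and 52.4 ± 4.73 FPKM in OGT_TG hearts, against 77.9 ± 7.01 FPKM in WT hearts, and fell, with differences of −0.28 ± 0.074 (limma adjusted p = 0.011) in DTG and −0.56 ± 0.074 (adjusted p = 5.1e-06) in OGT_TG hearts. The DTG call of Hk2 ended under median-of-ratios and quantile scaling. Slc2a4, the insulin-responsive glucose transporter, fell in OGT_TG hearts, with a difference of −0.57 ± 0.129 (adjusted p = 0.0015) that was −0.31 without replicates 3 and 6 (adjusted p = 0.0054). Hk1, the more general hexokinase, rose in OGT_TG hearts by 0.42 ± 0.097 (adjusted p = 0.0017), and by 0.23 without those hearts (adjusted p = 0.0048). In DTG hearts Slc2a4 had a difference of −0.11 ± 0.129 and Hk1 of 0.22 ± 0.097, neither called, though all DTG hearts lay above all WT hearts for Hk1, and its call was gained without OGT_TG replicates 3 and 6 (adjusted p = 0.0037).

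Of 8 tested genes listed around the release of hexosamines, 0 were higher and 1 lower in DTG, and 3 higher and 0 lower in OGT_TG hearts, where 11.4% of all rows were lower in DTG and 25.2% higher in OGT_TG hearts. The list is broader than its name, and the gene lower in DTG hearts is a mannosidase. Hexa, a lysosomal hexosaminidase subunit, averaged 41.3 ± 1.85 FPKM in DTG and 56.4 ± 4.88 FPKM in OGT_TG hearts, against 38.1 ± 2.39 FPKM in WT hearts. It rose in OGT_TG hearts by 0.55 ± 0.059 (limma adjusted p = 4.4e-07) and had a difference of 0.12 ± 0.059 in DTG hearts, not called, though it was called under median-of-ratios and quantile scaling. Ctbs, a chitobiase, and Hgsnat, a heparan acetyltransferase, rose in OGT_TG hearts by 0.27 ± 0.098 and 0.26 ± 0.089, and neither was called without replicates 3 and 6 (adjusted p = 0.083 and 0.085) or under median-of-ratios or quantile scaling. Single hearts ended these calls too, OGT_TG replicates 2, 3 and 5 and WT replicates 3, 5 and 6 that of Ctbs, and OGT_TG replicate 3 and WT replicate 6 that of Hgsnat. With hearts blocked by their shared title number, Ctbs was not called (adjusted p = 0.050). The lower gene in DTG hearts was Manba, a lysosomal mannosidase, at −0.25 ± 0.073 (adjusted p = 0.020), a call lost without DTG replicate 2 or WT replicate 1 (adjusted p of up to 0.059) and when libraries were set to equal sums.

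Of 10 tested users and transporters of UDP-GlcNAc, 1 was higher and 0 lower in DTG, and 4 were higher and 0 lower in OGT_TG hearts, where 25.2% of all rows were higher. Alg14, part of the transferase that adds the second sugar of N-glycan precursors, averaged 16.2 ± 1.94 FPKM in DTG and 17.1 ± 2.30 FPKM in OGT_TG hearts, against 11.6 ± 1.90 FPKM in WT hearts. It rose by 0.45 ± 0.118 (limma adjusted p = 0.011) in DTG and by 0.52 ± 0.118 (adjusted p = 0.0015) in OGT_TG hearts. Slc35d2, a Golgi nucleotide sugar transporter, Eogt, which puts O-GlcNAc on extracellular protein domains, and Mgat2, an N-glycan branching enzyme, rose in OGT_TG hearts by 0.37 ± 0.111, 0.27 ± 0.071 and 0.23 ± 0.087. Without replicates 3 and 6, Slc35d2 (adjusted p = 0.094) and Mgat2 (adjusted p = 0.27) were not called, and without any 1 of OGT_TG replicates 3, 5 and 6 and WT replicates 1, 2, 4 and 5 the call of Mgat2 also ended, as it did with the block (adjusted p = 0.076). The sialic acid branch, which starts from UDP-GlcNAc, had 1 lower of 5 in DTG hearts, Nans, the sialic acid synthase (−0.36 ± 0.111, adjusted p = 0.031), and none called in OGT_TG hearts. The call of Nans was lost without DTG replicate 1, 4 or 6 or WT replicate 3 or 5 (adjusted p of up to 0.080) and under equal-sum and median-of-ratios scaling. Gne, which opens that branch, was not called in either genotype.

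Of 5 stress transcription factors listed for reported links to hexosamine genes, 1 was higher and 1 lower in DTG, and 3 higher and 0 lower in OGT_TG hearts. Ddit3, a factor of the integrated stress response, averaged 25.5 ± 2.66 FPKM in DTG and 28.5 ± 3.08 FPKM in OGT_TG hearts, against 17.6 ± 3.92 FPKM in WT hearts. It rose by 0.53 ± 0.117 (limma adjusted p = 0.0031) in DTG and by 0.69 ± 0.117 (adjusted p = 9.4e-05) in OGT_TG hearts. Atf4, which acts upstream of Ddit3, rose in OGT_TG hearts by 0.45 ± 0.091 (adjusted p = 0.00053) and had a difference of 0.08 ± 0.091 in DTG hearts, not called. Atf6, a sensor of the endoplasmic reticulum, rose in OGT_TG hearts by 0.27 ± 0.063 (adjusted p = 0.0017). Xbp1, another factor of that compartment, averaged 32.9 ± 2.51 FPKM in DTG, against 41.8 ± 3.24 FPKM in WT hearts, and fell by a difference of −0.34 ± 0.075 (adjusted p = 0.0033). All DTG hearts lay below all WT hearts for Xbp1. In OGA_TG against WT hearts none of the genes of these 6 lists was called.

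**Figure D5:**
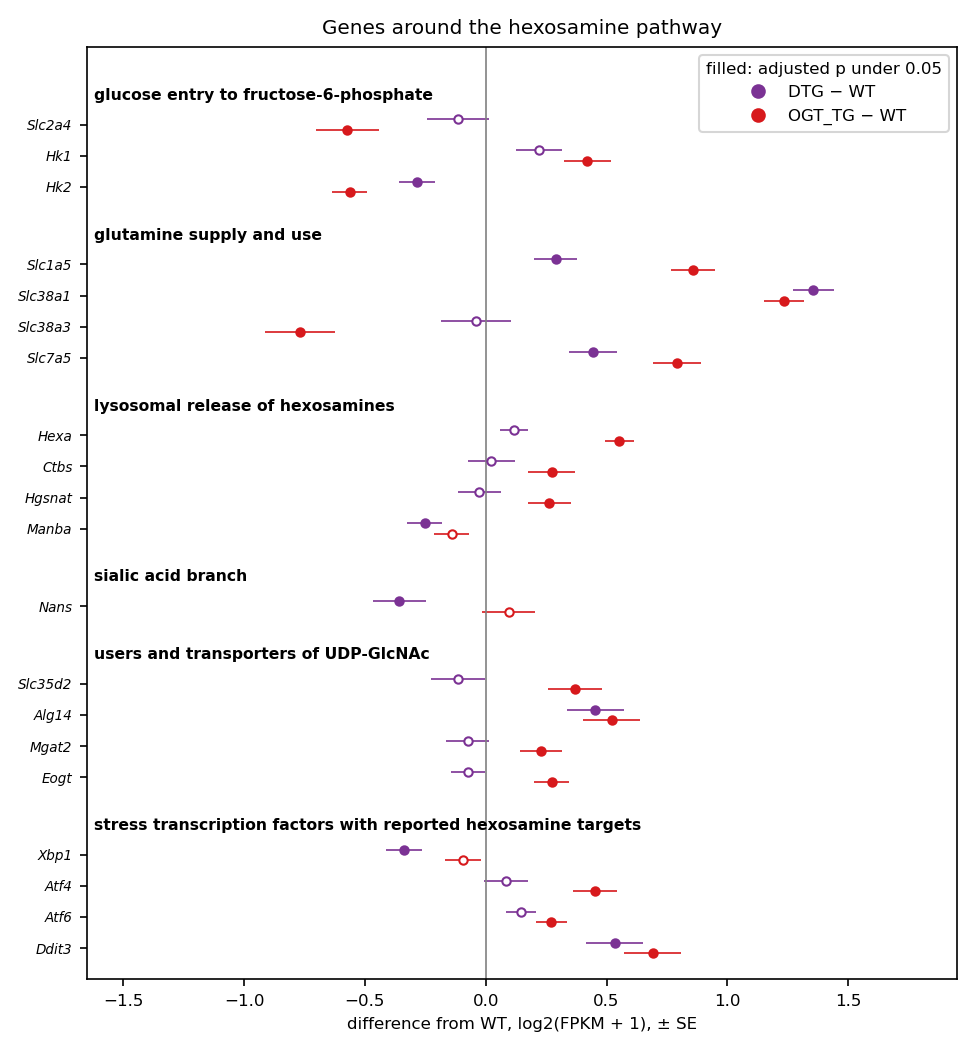
Differences from WT in log2(FPKM + 1) with standard errors for the named genes of the 6 lists, in DTG hearts above and OGT_TG hearts below within each gene, filled where the limma adjusted p was under 0.05. Slc38a1 lies far to the right in both, at 1.35 in DTG and 1.23 in OGT_TG hearts, while Hexa is filled in OGT_TG hearts, at 0.55, and open in DTG hearts, at 0.12.

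For each gene called against WT, the 3 rows with the most similar pattern over 24 hearts were found among 11691 rows, by the mean absolute distance of log2(FPKM + 1), each set relative to its own WT mean. Nearest to Gfpt2 were Pid1, Osmr and Mtmr11, at distances of 0.115 to 0.126. Pid1 differed from WT by 0.21 in DTG, 0.66 in OGT_TG and 0.08 in OGA_TG hearts. Nearest to Gfpt1 were Dnajc18, Xrn2 and Ccpg1 at 0.0744 to 0.0758, and nearest to Uap1 were Ssr1, 4833439L19Rik and Ppm1b at 0.0555 to 0.0595. Nearest to Nagk were Tmem50a, Cd2bp2 and Sars at 0.0644 to 0.0668, and nearest to Uap1l1 were Arhgdia, Lrp5 and Athl1 at 0.120 to 0.122. No other gene of the 10 was among these rows.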

How the data were processed

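Per the labels, entire hearts were homogenised in Trizol, and stranded poly(A) libraries were sequenced as paired-end reads. The authors deposited 1 table of FPKM values for all 24 libraries on mm10. The submitters' processing notes name FastQC, TopHat, SAMtools, StringTie and Cuffdiff 2.2.1, and the annotation used is not given in the sources used here. Of 19664 rows, 4 with missing values were dropped, and 343 rows join several symbols. The 10 genes each had a row of their own.

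Rows with at least 1 FPKM in at least 6 hearts were tested with limma 3.58.1 in R 4.3.3 (trend in the mean, two-sided) on log2(FPKM + 1), with genotype and sex as terms over all 24 hearts. The pseudocount was 1. Replicates are hearts of different mice. The genes and lists were chosen with earlier results of these data known, so their counts carry no independent weight. All 10 genes are named, with up to 4 called genes of each neighbouring list by the size of the difference. Depth was estimated from whole-fragment steps in 261 rows with a transcript over 3000 bases, which gives an approximate scale. GC content and positions came from GENCODE M21 on the same build.

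OGT_TG and WT hearts share title numbers. No DTG or OGA_TG heart shares a title number with another genotype. Differences that involve these groups, the interaction among them, cannot be told apart from differences between title numbers. Same-numbered hearts deviated together from their group means, with r of 0.216, 0.575, 0.377 and 0.148 across rows. From means of group and sex, r was 0.370, 0.370, 0.204 and 0.204. Each number holds 1 sex and mirrors the other number of that sex, so these values come in equal pairs. The numbers were taken as a pairing. Same-numbered hearts also shared the sign of their GC balance, whose part in these values was not tested. Other scalings, filters, weights, single-sex fits, the block and each heart left out were tried. The code was tested on simulated data. Some genes of the neighbouring lists are not reported here.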

Additional observations from a re-analysis of the deposited data

Results flagged for a closer look

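Gfpt2 differed between backgrounds in the difference that goes with the OGA transgene. Since the OGT row also differed between DTG and OGT_TG hearts, the OGA transgene and the level of OGT cannot be told apart here. The DTG minus OGT_TG difference was −0.61 and the OGA_TG minus WT difference 0.10 in log2(FPKM + 1), an interaction of −0.71 ± 0.107 (limma adjusted p = 0.00091). All 6 DTG hearts lay below all 6 OGT_TG hearts.

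Nagk gave an interaction of −0.30 ± 0.085 in the same direction (limma adjusted p = 0.036), from −0.31 for DTG minus OGT_TG and −0.01 for OGA_TG minus WT. It was lost without any 1 of 11 hearts, with the adjusted p running from 0.012 to 0.062 over all 24 hearts left out.

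No single heart stood apart from its group in any of the 10 genes by Dixon's test over 40 groups of 6 hearts. Chance alone passes this test in about 1 of 20 groups. The test weighs the gap between an extreme heart and the next, so it can miss hearts that lie apart together. For Uap1l1, OGT_TG replicates 3 and 6 had 8.56 and 8.28 FPKM, and the next OGT_TG heart had 6.07 FPKM. The test therefore cannot decide whether these hearts stood apart from their group.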

How the results depend on the processing

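No called result changed direction under any alternative run. In OGT_TG against WT hearts the 3 calls became 5 with an equal sum of FPKM and 1 in males, with 2 to 4 when 1 heart was left out. The replicate block, which pairs OGT_TG and WT hearts by title number, kept 3 calls, Gfpt2, Uap1l1 and Nagk. In that comparison it changed no call printed here but those of Ctbs and Mgat2. In DTG against WT hearts the 2 calls became 1 with no filter, an equal sum, median-of-ratios scaling, quantile normalization or an adjusted p under 0.01, 4 with library weights, 0 in either sex alone, and 1 to 2 with 1 heart left out. In DTG against OGT_TG hearts the 7 calls became 2 under median-of-ratios scaling, quantile normalization or in females, 1 in males, 4 at 0.01 and 5 to 8 with 1 heart left out. In DTG against OGA_TG hearts the 1 call became 2 with library weights and 0 in females. In OGT_TG against OGA_TG hearts the 5 calls became 3 with only those groups fitted, in females, at 0.01 or without OGT_TG replicates 3 and 6, 1 in males, 8 with the GC balance as a covariate, and 3 to 5 with 1 heart left out. The 2 interactions became 4 with library weights, 1 under median-of-ratios scaling, quantile normalization, at 0.01 or without those OGT_TG hearts, 0 in either sex, and 1 to 3 with 1 heart left out. The cause was not tested. The GC balance and the sex-by-genotype terms were chosen after the data were seen.

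Over all rows, counts called also moved. DTG against WT hearts gave 1878 calls, 3553 with library weights and 2869 with the GC balance. The interaction gave 877 calls, 2085 with library weights and 1988 with the GC balance. OGA_TG against WT hearts gave 43 calls, 319 with library weights and 180 with the GC balance. Scaling moved the split of higher and lower rows. It was 604 and 3274 in DTG against OGT_TG hearts, and 1477 and 1372 under median-of-ratios scaling. It was 3997 and 1335 in OGT_TG against OGA_TG hearts, and 2317 and 2674 under that scaling. It was 217 and 660 for the interaction, and 337 and 371 under that scaling. In DTG against WT hearts an equal sum gave 754 and 732. A filter at 5 FPKM leaves out Pgm3 and Amdhd2, whose values rest on the fewest fragments.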

Other observations

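The OGT row was higher in DTG than in OGT_TG hearts, from 3986 to 5261 FPKM in DTG, against 715 to 2691 FPKM in OGT_TG hearts. Mouse Ogt, the endogenous gene, averaged 25.5 ± 2.59 FPKM in DTG, 31.6 ± 2.59 FPKM in OGT_TG, 41.6 ± 3.70 FPKM in OGA_TG and 35.8 ± 3.24 FPKM in WT hearts (SD, n = 6). Mgea5, the mouse gene for OGA, averaged 47.7 ± 5.14 FPKM in DTG, 54.7 ± 10.9 FPKM in OGT_TG, 24.7 ± 3.44 FPKM in OGA_TG and 42.0 ± 5.24 FPKM in WT hearts.

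Uap1l1 made up 15.6 ± 2.94% of the summed FPKM of Uap1 and Uap1l1 in DTG, 19.3 ± 4.94% in OGT_TG, 13.1 ± 3.42% in OGA_TG and 14.3 ± 4.04% in WT hearts, with overlapping ranges throughout. The sum of both was 25.5 ± 1.23 FPKM in DTG, 31.6 ± 3.47 FPKM in OGT_TG, 27.5 ± 0.836 FPKM in OGA_TG and 28.8 ± 1.04 FPKM in WT hearts.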
